A study of Mus musculus with 6 samples.

Results

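The DEAD and DEAH box RNA helicases of Lewis lung carcinoma cells, a mouse tumour line that grows in syngeneic mice, were followed through a knockdown of the heme synthesis enzyme uroporphyrinogen decarboxylase (Urod). The genes were taken by name: every row of the expression table that began with Ddx or Dhx and a number, with Ddx58 and Dhx58 left out. This gave 51 genes, 36 named Ddx and 15 named Dhx, of 19617 rows in the table. The cells carried either a Urod shRNA (3 libraries, genotype labelled Urod knockdown) or a scrambled shRNA delivered by lentivirus (3 libraries, genotype labelled Urod wildtype). Both were given 2 ug/mL doxycycline for 4 days to switch the hairpin on, so the scrambled cells had the drug too, and both were grown in DMEM with serum. The labels do not say whether the cells of a group were 1 clone, how many hairpins were used, or whether the 3 libraries came from separate cultures. The spread behind the p-values is that between the libraries as deposited and may be only technical.

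DEAD box and DEAH box proteins are named for a short amino acid motif in their ATP-binding core. They use ATP to bind, remodel or unwind RNA and to release proteins from it. Different members serve ribosome assembly in the nucleolus, the steps of splicing, export of mRNA through nuclear pores, translation, mRNA decay and antiviral sensing. Growing tumour cells need most of them for making ribosomes and mRNA.

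Levels are in TPM, which divide out both the length of a transcript and the total of its library, so levels of different genes can be compared but absolute read depth is unknown. From the step between the lowest values, the Urod shRNA libraries stood at 85.7% to 100% and the scrambled libraries at 72.9% to 81.9% of the depth of the deepest one. Urod itself stood at 5.71, 5.21 and 5.35 TPM in Urod shRNA libraries, against 95.2, 89.9 and 92.1 TPM in scrambled libraries, a log2 change of -3.86 (limma, adjusted p = 8.22e-09). Of the epithelial markers, Krt8, a keratin, averaged 459 TPM in Urod shRNA and 314.5 TPM in scrambled libraries, while the adhesion molecule Epcam was lower, with 0.943 TPM in Urod shRNA and 1.96 TPM in scrambled libraries (log2 change -0.61, adjusted p = 0.00039), and Krt18, Krt19, Cdh1 and Cldn4 were under 1 TPM. Summed over their lists, 6 leukocyte markers held 41.6 to 44.0 TPM in Urod shRNA against 102.1 to 103.5 TPM in scrambled libraries, and 5 fibroblast markers 47.5 to 51.8 against 73.4 to 78.4 TPM. The 4 endothelial markers summed to 8.74 to 9.61 TPM in Urod shRNA against 4.91 to 5.31 TPM in scrambled libraries, and the 6 epithelial markers, nearly all of it Krt8, to 446.9 to 470.2 against 304.7 to 330.9 TPM. No marker was at 0 in every library, and the defining leukocyte gene Ptprc averaged 0.041 TPM in Urod shRNA and 0.059 TPM in scrambled libraries. The part of these differences in the results below was not tested, and in bulk RNA fewer cells of a type and less RNA per cell cannot be told apart.

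The comparison set cells with lowered Urod against scrambled cells, and most helicase transcripts rose. Of the 47 helicase genes that averaged 1 TPM or more, 36 were higher in Urod shRNA cells, 6 were lower and 5 did not pass the test (limma on log2(TPM + 1), Benjamini-Hochberg adjusted p under 0.05 over 11980 genes). In either direction 89.4% of the helicases were called, where 74.7% of all genes tested were. The share called higher was 76.6% of the helicases, where 38.5% of all genes tested were called higher, and the share called lower was 12.8%, where 36.2% of all genes tested were. The median log2 change was 0.41 over the 47 helicases and 0.02 over all genes tested, and the helicases ran from -0.65 to 1.68. Most rises were moderate: 16 helicases rose at least 1.5-fold on the log2(TPM + 1) scale, where 11.5% of all genes tested did, and 3 rose at least 2-fold, where 2.74% did. Of the falls, 2 reached 1.5-fold, where 13.3% of all genes tested did, and none reached 2-fold; changes of 2-fold in either direction were called for 7.53% of all genes tested. The 3 libraries of each group did not overlap for 41 helicases (87.2%), as for 77.3% of all genes tested. Of these 47 genes, the FDR in the authors' deposited table called the same 36 higher and the same 6 lower, with 75.3% of all genes tested called in either direction.

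Together the 51 transcripts summed to 4508, 4665 and 4578 TPM in Urod shRNA libraries, against 3176, 3210 and 3147 TPM in scrambled libraries. Every Urod shRNA library lay above every scrambled one, by 1.44-fold on average. Ddx39 was the most abundant helicase in Urod shRNA cells and the fifth in scrambled cells, and its share of the sum was 10.7% in Urod shRNA and 4.76% in scrambled cells. Ddx5 was in the second place in both groups. Ddx50 was in the ninth place in Urod shRNA cells and in the fourth in scrambled cells, and Dhx9 in place 13 in Urod shRNA and place 29 in scrambled cells.

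**Figure D1:**
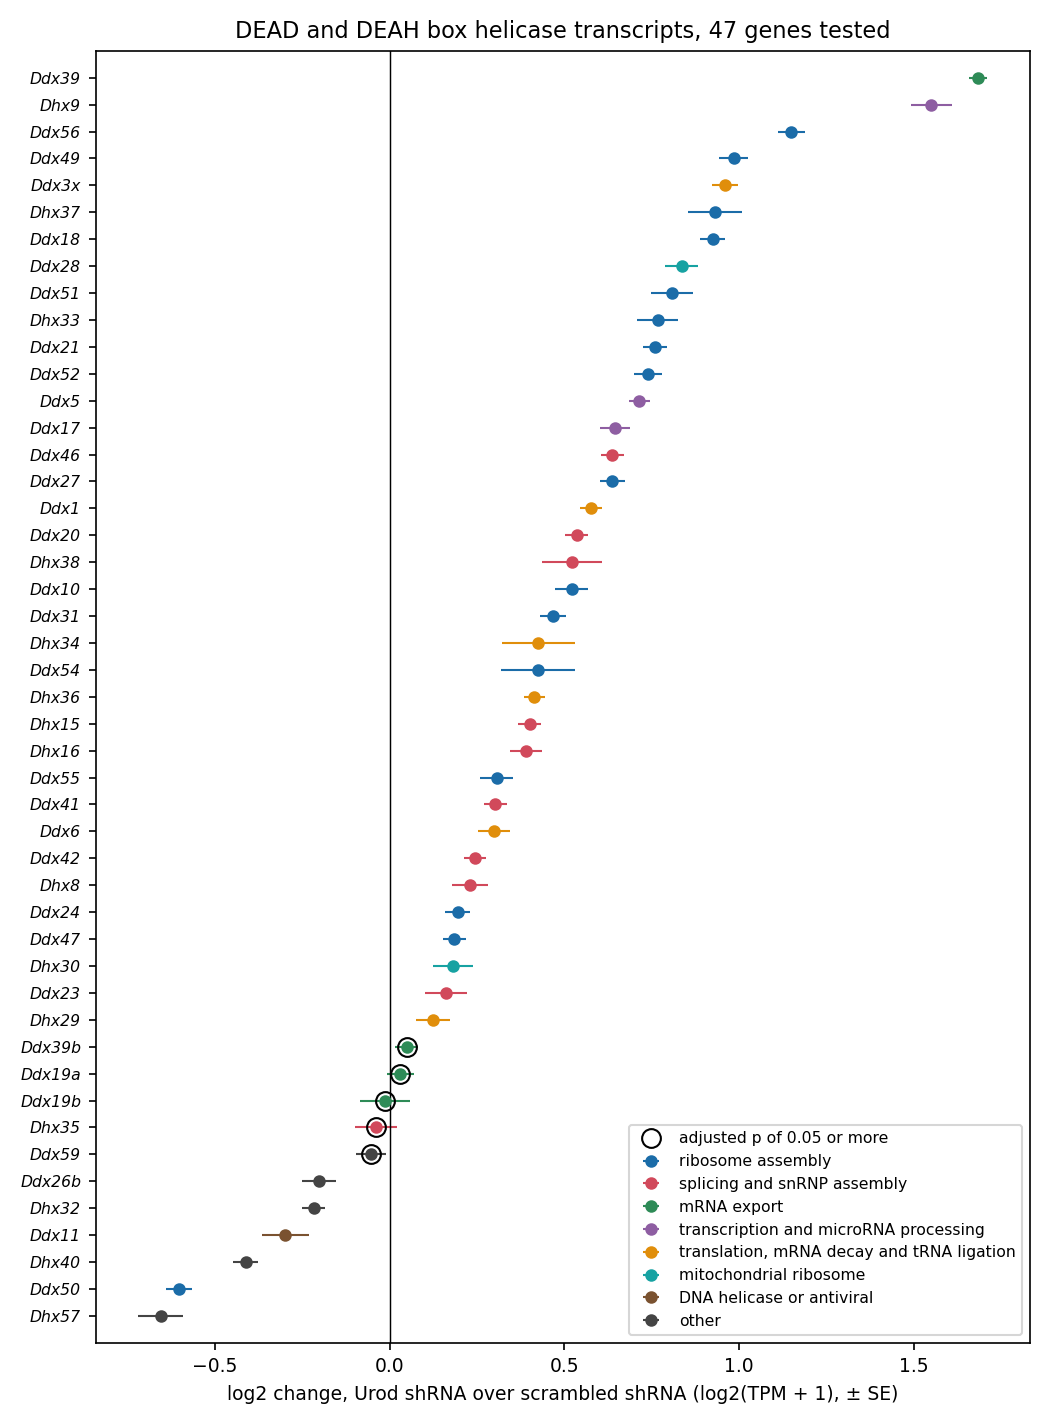
Log2 change of each of the 47 tested helicase transcripts, Urod shRNA over scrambled shRNA, on the log2(TPM + 1) scale with its standard error (horizontal axis), 1 gene per row, coloured by role; rings mark the 5 genes whose adjusted p was 0.05 or more. Ddx39 and Dhx9 stand apart at 1.68 and 1.55, most ribosome assembly genes lie above 0, and Ddx50 and Dhx57 are lowest at -0.60 and -0.65.

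Helicases of ribosome assembly were the largest group. They strip small nucleolar RNAs from the pre-ribosome and drive its folding, and most are known from their yeast counterparts. All 16 were tested, with a median log2 change of 0.69. Of them 15 rose (93.8%, where 38.5% of all genes tested did) and 1 fell (6.25%, where 36.2% did). The nucleolar helicase Ddx56, known for a role in assembly of the large subunit, rose most. It had 37.0, 37.5 and 37.7 TPM in Urod shRNA libraries, against 16.0, 16.1 and 16.9 TPM in scrambled libraries, a rise of 2.29-fold (log2 change 1.15, SE 0.04, adjusted p = 2.83e-07). The groups were far apart beside a spread of 0.328 TPM (SD) in Urod shRNA and 0.484 TPM in scrambled libraries.

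Ddx49, whose yeast counterpart Dbp8 works on the small subunit, had 76.9, 74.9 and 77.3 TPM in Urod shRNA libraries, against 36.0, 39.1 and 39.4 TPM in scrambled libraries. All 3 Urod shRNA libraries were higher, 2.00-fold on average (log2 change 0.98, SE 0.04, adjusted p = 8.10e-07). In the annotation, 29.8% of Ddx49's exon bases overlap Homer3 on the opposite strand, and Homer3 itself averaged 25.2 TPM in Urod shRNA and 16.9 TPM in scrambled libraries. The sources used here do not say whether reads were counted by strand, so Ddx49 is uncertain to that extent.

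Dhx37, which in yeast (as Dhr1) releases the U3 small nucleolar RNA from the pre-ribosome, had 30.3, 35.0 and 31.7 TPM in Urod shRNA libraries, against 15.0, 16.6 and 18.0 TPM in scrambled libraries. Each Urod shRNA value exceeded the highest scrambled one (log2 change 0.93, SE 0.08, adjusted p = 2.05e-05). Ddx18, the counterpart of yeast Has1, had 115.3, 114.9 and 115.6 TPM in Urod shRNA libraries, against 59.8, 63.0 and 58.1 TPM in scrambled libraries. The Urod shRNA libraries were nearly equal and all well above the others (log2 change 0.92, SE 0.04, adjusted p = 5.14e-07). Of the 51-base stretches of Ddx18, 55.9% also occur in a pseudogene, Gm16433, which makes its absolute level uncertain, since ambiguous reads were discarded.

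Ddx51, which frees the large subunit precursor of the U8 small nucleolar RNA, rose by a log2 change of 0.81, averaging 9.94 ± 0.667 TPM in Urod shRNA and 5.24 ± 0.064 TPM in scrambled libraries (SD, n = 3 each). Dhx33, which has been linked to transcription of ribosomal RNA genes, rose by 0.77 with means of 25.6 TPM in Urod shRNA and 14.6 TPM in scrambled libraries. Ddx52, the counterpart of yeast Rok1, rose by 0.74 (79.9 TPM in Urod shRNA, 47.5 TPM in scrambled). These 3 did not overlap between groups, as was so for 77.3% of all genes tested.

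The remaining nucleolar members rose less. Log2 changes were 0.64 for Ddx27, 0.52 for Ddx10, 0.47 for Ddx31, 0.42 for Ddx54, 0.31 for Ddx55, 0.20 for Ddx24 and 0.18 for Ddx47, with adjusted p between 3.19e-06 (Ddx27) and 0.0073 (Ddx54). Their yeast counterparts act on the small subunit in the case of Ddx10 and Ddx47, and on the large subunit in the case of Ddx24, Ddx27, Ddx31, Ddx54 and Ddx55. The row of the 45S pre-ribosomal RNA, Rn45s, was also higher in Urod shRNA libraries. It averaged 3782 ± 297 TPM in Urod shRNA and 1313 ± 181 TPM in scrambled libraries (SD, n = 3 each). The libraries were made from polyadenylated RNA, so this row cannot be read as a measure of ribosomal RNA synthesis. Any link of Rn45s to the group's change was not tested.

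Ddx21 and Ddx50 are paralogs, both nucleolar, and neighbours on the minus strand of chromosome 10, Ddx21 from 62580251 to 62602281 and Ddx50 from 62615895 to 62651218 of GRCm38. Ddx21 also works in transcription by RNA polymerases in the nucleolus and nucleoplasm. Ddx21 had 227.2, 240.4 and 234.9 TPM in Urod shRNA libraries, against 133.8, 141.9 and 138.1 TPM in scrambled libraries. Ddx50 went the other way, with 141, 133.2 and 140.1 TPM in Urod shRNA libraries, against 217.4, 204.5 and 208.4 TPM in scrambled libraries. Neither gene overlapped between groups, and the order of the pair was reversed: Ddx21 exceeded Ddx50 in every Urod shRNA library and lay below it in every scrambled one. Ddx21 rose by a log2 change of 0.76 (SE 0.03, adjusted p = 1.02e-06) and Ddx50 fell by 0.60 (SE 0.04, adjusted p = 3.92e-06). The ratio of Ddx21 to Ddx50 was 1.70 ± 0.098 in Urod shRNA and 0.658 ± 0.040 in scrambled libraries (SD, n = 3 each). The log2 ratios differed by 1.36 (two-sided exact permutation p = 0.1, the smallest that 3 libraries against 3 allow; 0.2 adjusted over 4 pairs). Of the 51-base stretches of Ddx50, 15.7% also occur in a pseudogene, Gm8228, and of those of Ddx21, none occur in another gene.

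**Figure D2:**
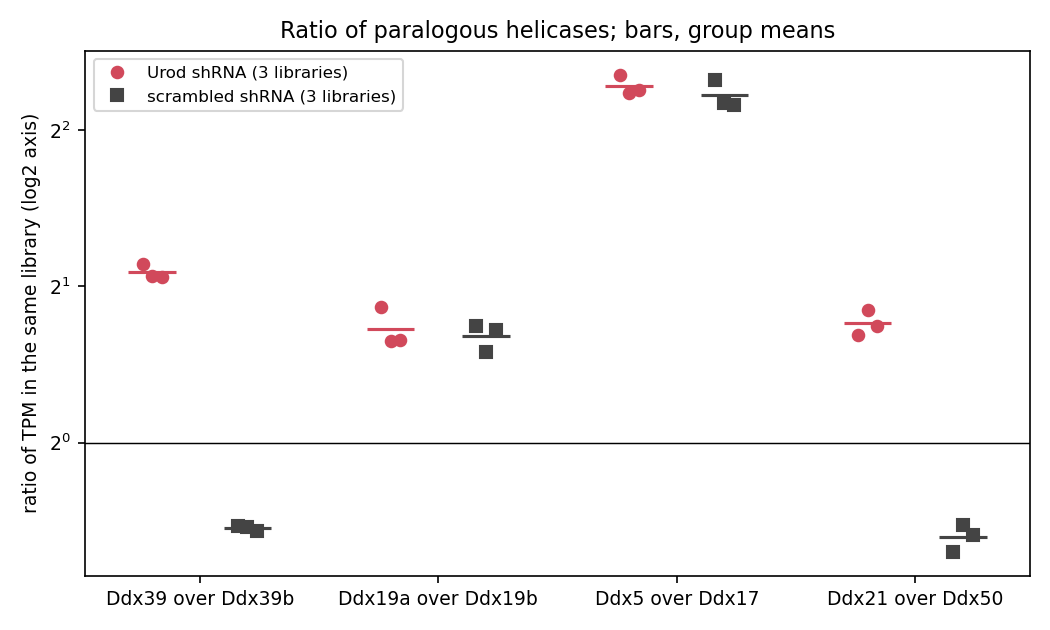
Ratio of the TPM of 2 paralogous helicases in the same library (vertical axis, log2 scale) for 4 pairs, with red circles for the 3 Urod shRNA libraries, dark squares for the 3 scrambled libraries and bars for group means. Ddx39 over Ddx39b and Ddx21 over Ddx50 lie above 1 in every Urod shRNA library and below 1 in every scrambled one, while Ddx5 over Ddx17 and Ddx19a over Ddx19b overlap between groups.

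The 4 helicases of mRNA export included both the largest rise of all 47 and 3 genes that did not pass the test. Thus 25.0% were called, where 74.7% of all genes tested were. Ddx39 and Ddx39b are close paralogs that act in mRNA export. Ddx39b is part of the TREX complex, which loads export factors onto mRNA. Ddx39 had 487.8, 489.5 and 486.7 TPM in Urod shRNA libraries, against 151.2, 154.4 and 148.4 TPM in scrambled libraries. The Urod shRNA libraries lay within a few TPM of each other and 3.23-fold above the scrambled ones (log2 change 1.68, SE 0.03, adjusted p = 2.31e-08). Ddx39b had 220.4, 233.6 and 233.2 TPM in Urod shRNA libraries, against 219.1, 225 and 219.8 TPM in scrambled libraries, and here the groups overlapped (log2 change 0.05, SE 0.03, adjusted p = 0.202).

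The ratio of Ddx39 to Ddx39b was 2.13 ± 0.071 in Urod shRNA and 0.684 ± 0.008 in scrambled libraries (SD, n = 3 each). Its log2 difference was 1.63 (two-sided exact permutation p = 0.1, 0.2 adjusted over 4 pairs). The more abundant member of the pair was Ddx39 in Urod shRNA cells and Ddx39b in scrambled cells. Ddx39 (ENSMUSG00000005481.18) is a protein-coding gene on the plus strand of chromosome 8, from 83715177 to 83726892 of GRCm38, and 17.4% of its exon bases overlap Cd97 (Adgre5) on the opposite strand. Cd97 averaged 51.0 TPM in Urod shRNA and 29.3 TPM in scrambled libraries. The libraries were strand-specific, but whether reads were counted by strand is not stated, so Ddx39 is uncertain to that extent too, as Ddx49 is. The same holds for Ddx41 and Ddx54, with 17.4% and 15.5% of exon bases overlapped on the opposite strand.

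Ddx19a and Ddx19b, which release export factors from mRNA at the nuclear pore, did not pass the test. Ddx19a had 42.0, 43.1 and 40.7 TPM in Urod shRNA libraries, against 42.3, 40.6 and 40.2 TPM in scrambled libraries. Ddx19b had 23.0, 27.5 and 25.8 TPM in Urod shRNA libraries, against 25.3, 27.2 and 24.4 TPM in scrambled libraries. Both overlapped, with log2 changes of 0.03 (SE 0.04, adjusted p = 0.483) and -0.01 (SE 0.07, adjusted p = 0.876). Their ratio was 1.66 ± 0.145 in Urod shRNA and 1.60 ± 0.098 in scrambled libraries (SD, n = 3 each), a log2 difference of 0.04 (exact permutation p = 0.7, the same adjusted). The sign of that difference turned without Urod shRNA replicate 1 (-0.02) and without scrambled replicate 2 (-0.01), and the 2 genes share 33.0% of the 51-base stretches of Ddx19a.

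Among export partners, the RNA-binding and pore factors that work with these helicases, 9 of 14 tested rose, 4 fell and 1 did not pass, with a median log2 change of 0.38. That is 64.3% higher, where 38.5% of all genes tested were, and 28.6% lower, where 36.2% were. Nxf1, the main mRNA export receptor, rose by 0.93, with 79.0 TPM in Urod shRNA and 40.9 TPM in scrambled libraries. Thoc1 and Alyref, which sit with Ddx39b in TREX, rose by 0.85 and 0.41. The 4 that fell were Thoc6 (log2 change -0.52), Zc3h11a (-0.34), Poldip3 (-0.12) and Nxt1 (-0.12). These lists of partners were chosen for their textbook roles, but with earlier results of these data known.

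The helicases that act in transcription and microRNA processing all rose, 3 of 3, where 38.5% of all genes tested did. Dhx9, also called RNA helicase A, unwinds RNA and DNA structures and bridges transcription factors to RNA polymerase. It had 97.6, 112 and 103 TPM in Urod shRNA libraries, against 33.0, 36.8 and 34.9 TPM in scrambled libraries. The lowest Urod shRNA library was well above the highest scrambled one, and the rise was 2.98-fold (log2 change 1.55, SE 0.06, adjusted p = 4.86e-07). Dhx9 (ENSMUSG00000042699.11) lies on the minus strand of chromosome 1, from 153455758 to 153487660 of GRCm38, and none of its 51-base stretches occur in another gene.

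Ddx5 and Ddx17 are paralogs that assist the Drosha microprocessor and act as transcription coregulators. Ddx5 had 480.5, 479.9 and 470.4 TPM in Urod shRNA libraries, against 298.7, 289.6 and 282.7 TPM in scrambled libraries. Ddx17 had 93.7, 101.7 and 98.2 TPM in Urod shRNA libraries, against 59.6, 64.0 and 63.1 TPM in scrambled libraries. Neither gene overlapped between groups, and the rise was 0.71 for Ddx5 (SE 0.03, adjusted p = 7.08e-07) and 0.65 for Ddx17 (SE 0.04, adjusted p = 6.21e-06). Their ratio was 4.88 ± 0.218 in Urod shRNA and 4.67 ± 0.293 in scrambled libraries (SD, n = 3 each), a log2 difference of 0.07 that lay within the spread (exact permutation p = 0.3, 0.4 adjusted over 4 pairs). A pseudogene, Gm12183, holds 20.2% of the 51-base stretches of Ddx5.

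**Figure D3:**
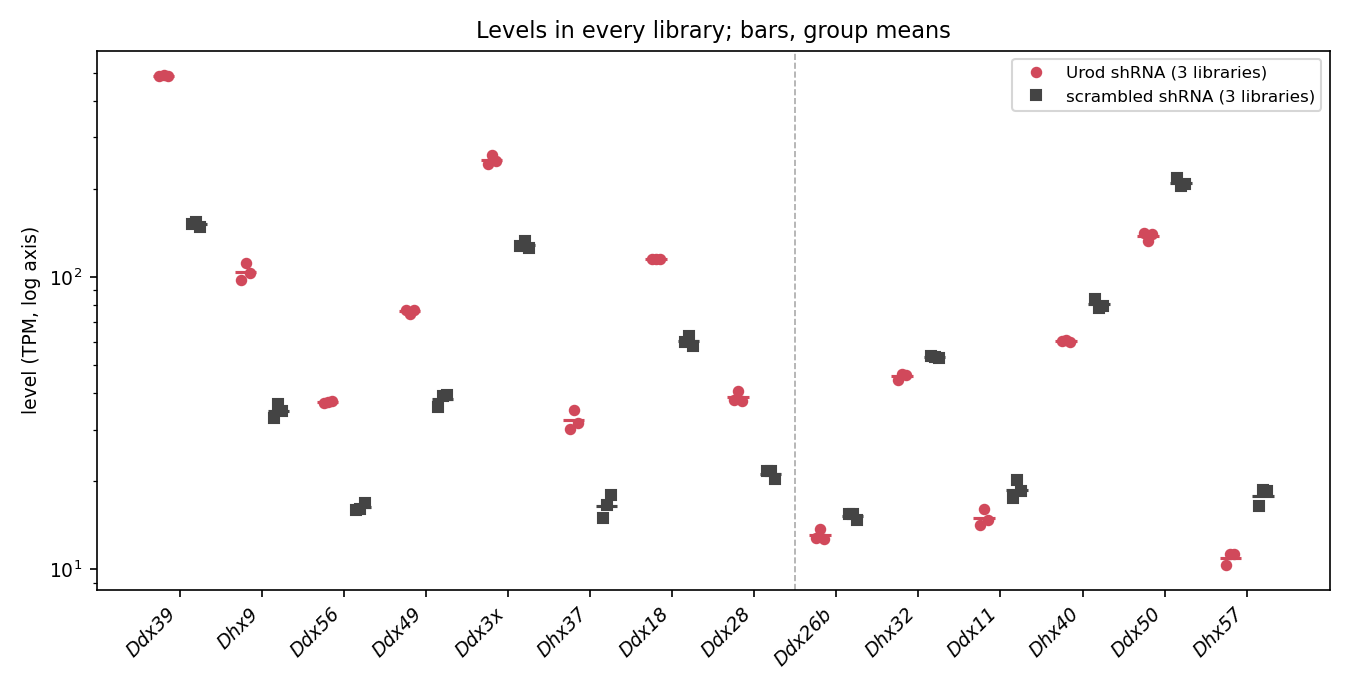
Level in TPM (vertical log axis) in every library of the 8 helicases with the largest rises, left of the dashed line, and the 6 that fell, right of it, with red circles for Urod shRNA, dark squares for scrambled shRNA and bars for group means. Only called genes without overlap between groups could be picked, so the separation of all 14 follows from that choice. Of all genes tested, 77.3% did not overlap. Ddx39 shows the widest gap, 488 against 151.3 TPM on average.

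Of the 6 helicases of translation, mRNA decay and tRNA ligation, all 6 rose, where 38.5% of all genes tested did. Their median log2 change was 0.42. Ddx3x, which helps ribosomes load on mRNAs with structured leaders, had 242.9, 261.2 and 250.1 TPM in Urod shRNA libraries, against 128.1, 132.7 and 125.3 TPM in scrambled libraries. It rose 1.95-fold with no overlap (log2 change 0.96, SE 0.04, adjusted p = 5.03e-07). Ddx1, a subunit of the tRNA ligase complex, was the third most abundant helicase in Urod shRNA cells and the first in scrambled cells, with means of 450.2 ± 3.75 TPM in Urod shRNA and 301.7 ± 10.4 TPM in scrambled libraries (SD, n = 3 each), a log2 change of 0.58.

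Smaller rises were seen for Dhx34 (0.43), a factor of nonsense-mediated decay, for Dhx36 (0.41), which resolves G-quadruplexes, and for Ddx6 (0.30), a repressor and decapping activator found in P bodies. Dhx29, which helps ribosomes scan structured leaders, rose by only 0.12 (adjusted p = 0.0485). Its groups were separated by a narrow gap, with 33.1, 36.1 and 37.2 TPM in Urod shRNA libraries against 32.3, 32.9 and 32.0 TPM in scrambled libraries. That call was lost under 8 of 15 alternatives, among them the fits without Urod shRNA replicate 2, Urod shRNA replicate 3 or any 1 scrambled replicate, with limma adjusted p from 0.00633 to 0.176 over all of them.

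The partners of Ddx6 in decapping and repression were mixed. Of 12 tested, 5 rose, 3 fell and 4 did not pass, with a median log2 change of -0.04. The share called higher, 41.7%, was near the 38.5% of all genes tested, and the share called in either direction, 66.7%, was under their 74.7%, so the list does not stand out. Lsm1, of the ring that binds decaying mRNA ends, rose by 0.82, while Dcp2, the decapping enzyme, fell by 0.57. Eif4enif1, a translational repressor that binds Ddx6, rose by 0.32. Of the 5 other genes of the tRNA ligase complex, 3 rose, none fell and 2 did not pass, so that 60.0% were called, where 74.7% of all genes tested were. In this list Zbtb8os, also called archease, rose by 0.62, Fam98a by 0.33 and the ligase Rtcb by 0.26.

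Splicing helicases rose in 9 of 10 cases (90.0%, where 38.5% of all genes tested did), with a median log2 change of 0.35. In order of the splicing cycle, Ddx46, the counterpart of yeast Prp5, which helps the U2 particle bind the branch site, rose by 0.64. Ddx23, the counterpart of Prp28, which swaps U1 for U6 at the donor site, rose by 0.16, with 103.7, 115.8 and 114.4 TPM in Urod shRNA libraries against 92.4, 105 and 100.8 TPM in scrambled libraries. These groups overlapped, and the call (adjusted p = 0.0395) was lost under 7 of 15 alternatives, among them the fits without Urod shRNA replicate 2 or 3 and without scrambled replicate 1 or 3, with limma adjusted p from 0.000311 to 0.122 over all of them.

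Dhx16, Dhx38 and Dhx8, the counterparts of yeast Prp2, Prp16 and Prp22, drive the catalytic steps and release of the spliced mRNA. They rose by 0.39, 0.52 and 0.23, with no overlap. Dhx15, the counterpart of Prp43, takes apart spent spliceosomes and also serves ribosome assembly. It rose by 0.40, with means of 169.4 TPM in Urod shRNA and 128.1 TPM in scrambled libraries. Ddx41 and Ddx42, both found in spliceosomes, rose by 0.30 and 0.24. Dhx35 had a log2 change of -0.04 and did not pass (adjusted p = 0.579).

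Ddx20, or Gemin3, belongs to the SMN complex that loads Sm proteins onto spliceosomal RNAs. It rose by 0.53, averaging 56.9 ± 1.45 TPM in Urod shRNA and 39.0 ± 0.252 TPM in scrambled libraries (SD, n = 3 each). Of the 8 other SMN complex genes tested, 7 rose (87.5%) and 1 fell, with a median log2 change of 0.63, where 38.5% of all genes tested rose. Gemin4, a partner of Ddx20 in that complex, rose by 1.08, with 41.3 TPM in Urod shRNA and 18.9 TPM in scrambled libraries. Smn1, its central subunit, rose by 0.84 and Gemin7 by 0.75.

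Transcripts of most core spliceosome proteins rose: 15 of 19 tested rose (78.9%, where 38.5% of all genes tested did), 2 fell and 2 did not pass, with a median log2 change of 0.37. Sf3b3, a part of the U2 particle, rose by 1.21, with 115.1 TPM in Urod shRNA and 49.0 TPM in scrambled libraries. Prpf31 and Prpf3, of the particle that joins U4 with U6, rose by 1.17 and 0.67. G-patch proteins, some of which switch on DEAH box helicases, were listed together with Utp14a. Genes of this list rose in 11 of 18 cases (61.1%, where 38.5% of all genes tested did). Another 1 was lower and 6 did not pass, with a median of 0.47. In either direction 66.7% of them were called, where 74.7% of all genes tested were. Gpatch3 rose by 1.46, Gpatch4 by 1.29 and Utp14a, an activator of Dhx37 in yeast but no G-patch protein, by 0.60.

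Both helicases of mitochondrial ribosome assembly rose, where 38.5% of all genes tested did. Ddx28, needed for the large mitochondrial subunit, had 37.8, 40.8 and 37.6 TPM in Urod shRNA libraries, against 21.7, 21.7 and 20.4 TPM in scrambled libraries. The groups did not overlap and the rise was 1.82-fold (log2 change 0.84, SE 0.05, adjusted p = 2.86e-06). Dhx30 rose by 0.18 (adjusted p = 0.0205), a call lost without Urod shRNA replicate 2 (adjusted p = 0.0702) and without Urod shRNA replicate 3 (adjusted p = 0.0554), in a range of 0.000503 to 0.0702 over 15 alternatives. Other genes of mitochondrial RNA granules, where both are found, rose in 7 of 9 cases (77.8%, where 38.5% of all genes tested did), with 1 lower and 1 not passing. Lrpprc, which stabilises mitochondrial mRNAs, rose by 1.01, with 76.7 TPM in Urod shRNA and 37.5 TPM in scrambled libraries, and Fastkd2 and Fastkd5 rose by 0.91 and 0.63.

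Of the 6 helicase genes that fell, Ddx50 is given above, and the other 5 were placed in none of the role groups described so far, some of them because little is known of their work. Dhx57, a little studied DEAH box gene, fell most. It had 10.3, 11.3 and 11.3 TPM in Urod shRNA libraries, against 16.4, 18.6 and 18.6 TPM in scrambled libraries, with no overlap (log2 change -0.65, SE 0.06, adjusted p = 4.76e-05). Dhx40, of which little is known, had 60.4, 60.9 and 59.7 TPM in Urod shRNA libraries, against 84.0, 78.4 and 79.5 TPM in scrambled libraries. All Urod shRNA libraries were lower (log2 change -0.41, SE 0.04, adjusted p = 2.40e-05).

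Ddx11 is a DNA helicase of sister chromatid cohesion. It had 14.2, 16.1 and 14.8 TPM in Urod shRNA libraries, against 17.5, 20.2 and 18.5 TPM in scrambled libraries, apart but with a wide spread (log2 change -0.30, SE 0.07, adjusted p = 0.00457). Dhx32 had 44.4, 46.5 and 46.3 TPM in Urod shRNA libraries, against 53.9, 53.3 and 52.8 TPM in scrambled libraries, a small fall with no overlap (log2 change -0.22, SE 0.03, adjusted p = 0.000558). Ddx26b is listed today as Ints6l, after an Integrator subunit it resembles, and its place among the helicases rests on the older name alone. Its levels were 12.8, 13.8 and 12.7 TPM in Urod shRNA libraries, against 15.4, 15.5 and 14.8 TPM in scrambled libraries. It too fell with no overlap (log2 change -0.20, SE 0.05, adjusted p = 0.00657). Ddx59, linked to a ciliary syndrome in humans, did not pass (log2 change -0.05, adjusted p = 0.295).

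The 4 genes under 1 TPM were not tested. Ddx4 (Vasa), Ddx25 and Ddx43 are germ cell helicases. Ddx4 averaged 0.253 TPM in Urod shRNA and 0.499 TPM in scrambled libraries, Ddx25 0.206 TPM in Urod shRNA and 0.256 TPM in scrambled libraries, and Ddx43 was listed at 0 in all Urod shRNA libraries and in 1 scrambled library. The antiviral helicase Ddx60 had 0.029, 0.015 and 0.034 TPM in Urod shRNA libraries, against 0.099, 0.103 and 0.097 TPM in scrambled libraries. The authors' deposited table, which has no such filter, calls Ddx4 (log2 fold change -0.96, FDR 0.000639) and Ddx60 (-1.91, FDR 0.000119) lower and does not call Ddx25 or Ddx43.

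Helicases that carry neither name were followed as well. Of 10 tested, 8 rose (80.0%, where 38.5% of all genes tested did) and 2 fell, with a median log2 change of 0.51. Eif4a3, which marks exon junctions, rose by 0.53, with 241.4 TPM in Urod shRNA and 167.1 TPM in scrambled libraries. Skiv2l2, or Mtr4, which feeds nuclear RNA to the exosome, rose by 0.52. The paralogs Eif4a1 and Eif4a2, both translation initiation helicases, moved apart. Eif4a1 rose by 0.75, with 266.1 TPM in Urod shRNA and 157.7 TPM in scrambled libraries (adjusted p = 2.23e-05), and Eif4a2 fell by 0.46, with 191.8 TPM in Urod shRNA and 264.5 TPM in scrambled libraries.

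**Figure D4:**
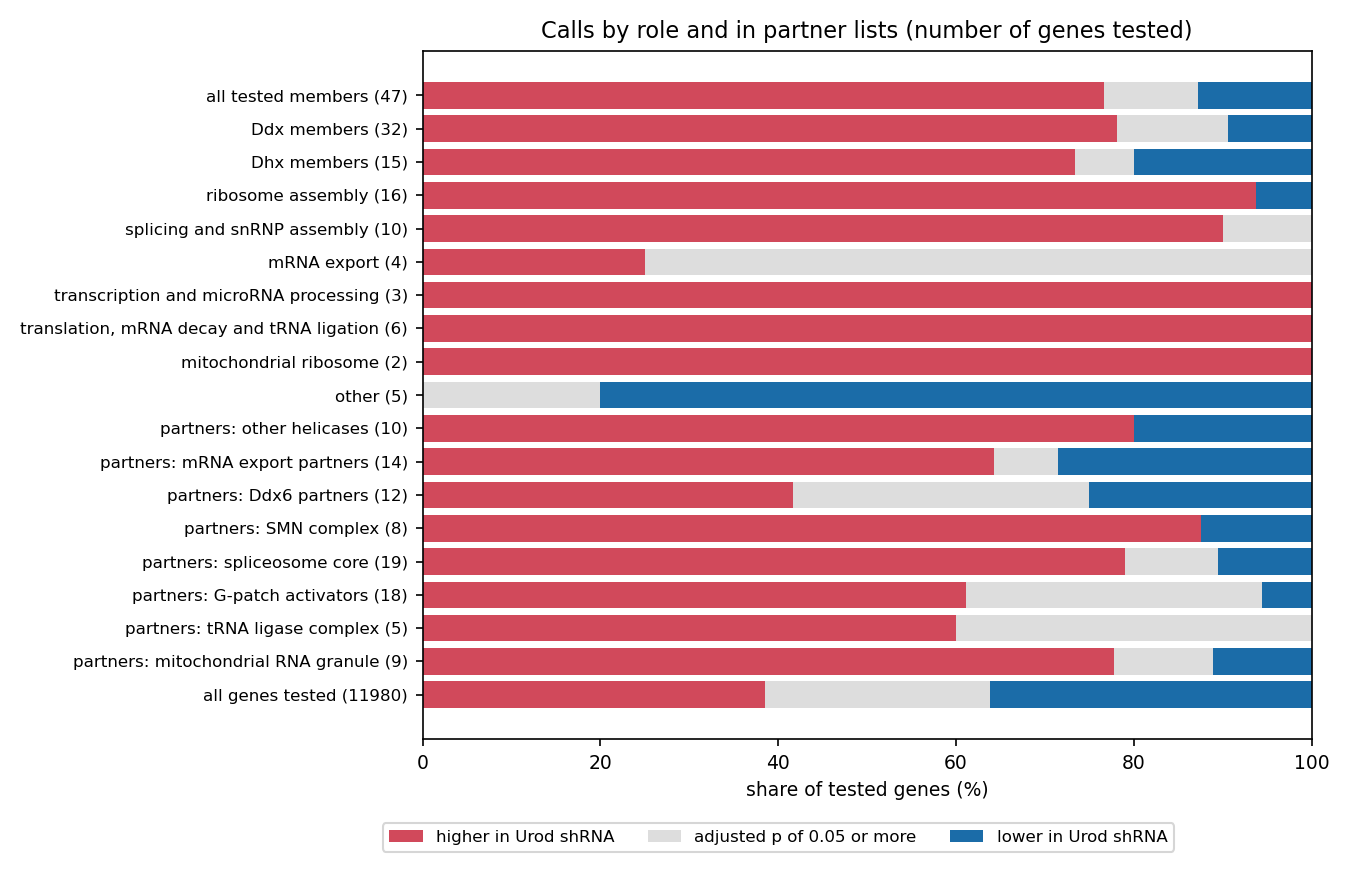
Share of tested genes (horizontal axis, percent) higher in Urod shRNA cells (red), not passing (grey) and lower (blue), for the helicases as a whole and by role, for the lists of partner genes and, in the bottom row, for all 11980 genes tested; the number tested is in brackets. The red share is 93.8% for ribosome assembly and 25.0% for mRNA export, and 38.5% for all genes.

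Promoter sequences are shown for the Ddx21 and Ddx50 pair, whose transcripts moved in opposite directions, and for Dhx9, Ddx56 and Ddx49, which had 3 of the 4 largest rises. Each is the 250 bases before a RefSeq start of the gene in GRCm38.p6. They are written 5′ to 3′ on the gene's own strand, the minus strand in all 5 cases. Ddx50 and Ddx49 each had 2 windows. For these genes the most upstream start among windows that matched an annotated transcript was used, and the motif counts given for single genes are those of the windows shown. The windows lie at chr10:62602299-62602548 for Ddx21, chr10:62651219-62651468 for Ddx50, chr1:153487661-153487910 for Dhx9, chr11:6267730-6267979 for Ddx56 and chr8:70302472-70302721 for Ddx49. Capitals mark matches, on either strand, to any of the motifs listed after them.
Ddx21: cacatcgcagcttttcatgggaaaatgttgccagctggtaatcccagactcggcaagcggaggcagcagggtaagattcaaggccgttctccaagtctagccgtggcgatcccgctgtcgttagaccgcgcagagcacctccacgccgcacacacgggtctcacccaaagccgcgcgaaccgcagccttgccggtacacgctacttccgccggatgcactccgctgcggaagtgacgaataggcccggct
Ddx50: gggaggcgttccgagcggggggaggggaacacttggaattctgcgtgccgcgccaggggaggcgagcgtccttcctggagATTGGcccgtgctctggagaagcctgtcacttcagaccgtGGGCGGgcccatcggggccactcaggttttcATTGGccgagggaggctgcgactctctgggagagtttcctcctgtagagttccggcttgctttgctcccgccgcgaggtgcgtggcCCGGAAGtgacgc
Dhx9: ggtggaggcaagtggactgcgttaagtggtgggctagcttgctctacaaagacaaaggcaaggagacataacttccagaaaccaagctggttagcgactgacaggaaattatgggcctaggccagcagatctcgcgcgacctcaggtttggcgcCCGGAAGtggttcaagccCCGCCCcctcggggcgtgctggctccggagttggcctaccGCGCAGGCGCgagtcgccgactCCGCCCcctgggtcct
Ddx56: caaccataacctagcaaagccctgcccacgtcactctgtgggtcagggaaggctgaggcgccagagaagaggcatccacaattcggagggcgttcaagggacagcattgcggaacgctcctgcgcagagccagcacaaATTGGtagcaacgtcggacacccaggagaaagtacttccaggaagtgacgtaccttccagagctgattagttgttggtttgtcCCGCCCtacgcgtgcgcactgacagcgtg
Ddx49: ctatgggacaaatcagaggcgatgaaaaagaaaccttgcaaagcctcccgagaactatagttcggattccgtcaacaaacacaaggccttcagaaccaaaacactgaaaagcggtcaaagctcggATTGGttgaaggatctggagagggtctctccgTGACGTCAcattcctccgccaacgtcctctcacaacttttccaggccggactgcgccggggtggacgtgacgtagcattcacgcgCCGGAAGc

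The motifs searched on both strands were an ETS motif (CCGGAAG), a cyclic AMP response element (TGACGTCA), an NRF1 motif, an E-box (CACGTG), a C/EBP-ATF composite (TGATGNAA), a GC box (GGGCGG) and a CCAAT box (CCAAT). The window of Ddx21 held none of the 7. That of its neighbour Ddx50 held 1 ETS motif, 1 GC box and 2 CCAAT boxes. The Dhx9 window held 1 ETS motif, 1 NRF1 motif and 2 GC boxes, that of Ddx56 1 GC box and 1 CCAAT box, and that of Ddx49 1 ETS motif, 1 cyclic AMP response element and 1 CCAAT box. Matches are letters in a window and not evidence of binding.

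RefSeq windows were matched to 46 of the 51 helicase genes, 57 windows in all; Ddx6, Ddx11, Ddx23, Ddx39 and Dhx38 had none matched. The ETS motif occurred in 29.8% of the helicase windows, in 13.9% of the 11355 windows of tested genes and in 6.91% of all 32851 windows. The cyclic AMP response element occurred in 8.77%, or 5 helicase windows, with 2.65% of windows of tested genes and 1.55% of all windows. NRF1 motifs were in 12.3% of helicase windows (8.21% of windows of tested genes, 3.74% of all), E-boxes in 10.5% (8.34% and 6.02%), GC boxes in 56.1% (57.9% and 32.7%) and CCAAT boxes in 43.9% (35.6% and 33.8%). The C/EBP-ATF composite was in 0 of 57 helicase windows, 1.99% of windows of tested genes and 3.45% of all. Some genes have several overlapping windows, and no test was made of these shares.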

How the data were processed

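Per the labels' protocols, polyadenylated RNA was sequenced from strand-specific libraries as 51-bp single-end reads, which were trimmed and mapped to mm10 with TopHat (version 2.0.1227 per the submitters' processing notes). Alignments of mapping quality 10 or more were kept, and Cufflinks and Cuffdiff (2.1.1) gave the abundances. The deposited table carries the name of normalized counts. Its 6 columns each add up to 1000000, and the log2 distance of its values from the authors' log2 CPM followed transcript length (Pearson r = -0.886 over 10787 genes, which are no independent replicates), so the deposited values were read as TPM made by the authors. A second table deposited by the authors lists for each gene a log2 fold change, its mean log2 CPM, the score of a likelihood ratio, and a p-value with its FDR, per the file headers; the sources used here do not name its test. TPM keep no counts, so no counting interval is given. Relative depth came from 3544 rarely detected genes (under 0.05 TPM on average).

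Samples were grouped by their titles. Rows named as calendar dates (27 rows, 0.231% to 0.241% of TPM) were left out, and the 11980 genes averaging 1 TPM or more over the 6 libraries were tested. Values were taken as log2(TPM + 1), which understates changes of low genes. The fit used limma 3.58.1 under R 4.3.3 with a variance trend, two-sided tests, Benjamini-Hochberg adjustment and a threshold of 0.05. The procedure was tested on simulated data. Ratios of paralogs were compared by exact permutation of libraries over 4 pairs. Stretches of 51 bases and exon overlaps came from GENCODE M21 (GRCm38, the same assembly as mm10), and promoter windows from RefSeq. Other steps ran in Python 3.11.15 with matplotlib 3.10.9.

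The helicase genes, their role groups and the partner and marker lists were chosen with earlier results of these data known. Values in every library are given for the 8 largest rises and up to 8 largest falls among called genes with a mean of 10 TPM or more and no overlap, and for the paralog pairs. Up to 3 called genes with the smallest adjusted p are named per partner list. Rn45s, Homer3, Cd97, Eif4a1, Krt8 and Epcam, and values in every library for Dhx29, Ddx23 and Ddx60, fall outside this rule. So do the export partners named as falling. All of these were chosen after their values were seen. Alternatives were other pseudocounts, filters and scalings, no variance trend, the replicate number as a block, and a fit without each library in turn.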

Additional observations from a re-analysis of the deposited data

How the results depend on the processing

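The counts of helicase genes called higher and lower stayed within 1.5 times under every alternative run: 33 to 36 higher and 6 lower when 1 library was left out, and 34 to 37 higher and 6 to 8 lower under other settings. The median log2 change of the helicases was 0.35 with a pseudocount of 10 and 0.38 with quantile normalization, and 0.35 to 0.42 when 1 library was left out; the cause was not tested. Over 15 settings and all tested helicases, 680 of 704 values kept direction and call, and 41 genes kept both throughout. Ddx23, Dhx29 and Dhx30 lost their call in some settings. Ddx39b passed with trimmed-mean scaling (log2 change 0.07, adjusted p = 0.0442, in a range of 0.0442 to 0.581 over alternatives) and was at -0.0208 with quantile normalization. Ddx19b turned to 0.008 with trimmed-mean scaling, and to 0.0547 without Urod shRNA replicate 1 and 0.0294 without scrambled replicate 2, in a range of -0.0682 to 0.0547 when 1 library was left out. Dhx35 turned to 0.013 with quantile normalization and to 0.0023 without Urod shRNA replicate 1, in a range of -0.0808 to 0.0023. The log2 difference of the Ddx19a to Ddx19b ratio ranged from -0.0246 to 0.0793 when 1 library was left out, lowest without Urod shRNA replicate 1, and was -0.0058 without scrambled replicate 2. Of 240 counts for single partner lists under alternatives, 13 moved by over 1.5 times, all of them counts of genes called lower. Same-numbered libraries deviated together with r of 0.418, 0.214 and 0.0951, and replicate 3 did not match best with its own number, so the numbers were not taken as pairs. With the replicate block, 36 helicases were higher and 6 lower, and 9882 of all genes were called, against 8945 without it.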
